A study of Homo sapiens with 9 samples.

Results

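The comparison described here sets a pair of siRNAs against the same gene side by side. A673 cells that received siLRWD1-6 (3 libraries) were compared directly with A673 cells that received siLRWD1-5 (3 libraries), and no scrambled library entered the test. The members are therefore 6 of the 9 libraries of the series, chosen by the siRNA named in their labels, and every gene that passed a low-count filter was tested. The other 3 libraries, from cells that received a scrambled siRNA, served only as a reference level. A673 is an established Ewing sarcoma cell line. In every group the siRNA was present at 13 nM, it was introduced by reverse transfection with siLentFect, and RNA was taken 48 h later. All groups also shared a high-glucose DMEM medium with serum approved for tetracycline-controlled systems, Zeocin and blasticidin. The labels describe 3 independent experiments, numbered as series 1 to 3, in 1 cell line, so the spread between libraries is a spread between experiments in that line. The title of the study names a viability screen by RNA interference for targets in EWS-FLI1 positive Ewing sarcoma. The question addressed here is how far the mRNA profiles of cells treated with each of the LRWD1 siRNAs differed.

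The LRWD1 protein (ORCA) carries WD repeats, helps to place the origin recognition complex on chromatin before DNA replication, and associates with repressive histone marks in heterochromatin. An siRNA is a short duplex whose guide strand is taken up by an Argonaute protein and directs cleavage of an mRNA with full complementarity. The same guide can also lower other mRNAs through pairing of its seed, a short stretch near its 5′ end, with sites that lie mostly in 3′ UTRs, so siRNAs of different sequence against the same gene can have different unintended targets. Ewing sarcoma cells such as A673 depend on EWS-FLI1, a fusion of the RNA-binding protein EWSR1 with the ETS transcription factor FLI1.

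The 6 libraries held 11971179 to 15333079 counts, and the 13466 genes tested took at least 99.9% of the counts of each. Levels are given in CPM, counts scaled to a common library total, and differences as log2 of siLRWD1-6 over siLRWD1-5. Where groups are not named again, levels follow in the order siLRWD1-5, siLRWD1-6, scrambled siRNA, with replicates 1 to 3 in each. Among 10 markers of Ewing sarcoma, 9 passed the filter. CD99, a surface marker of the disease, was listed at 0 in 8 of the 9 libraries and at 50 counts in the remaining one. The reason was not tested, and these counts do not show whether the cells express CD99. The summed level of these markers was 404 to 462 CPM with siLRWD1-5, 495 to 526 CPM with siLRWD1-6 and 584 to 606 CPM with the scrambled siRNA, and 4 of the 9 tested were higher with siLRWD1-6, as were 28.2% of all genes tested, while none was lower. Of 25 markers of other cell types, 3 passed the filter (CD68, SYP and SNAP25). Markers of T cells (CD3E), erythroid cells (HBB), keratinocytes (KRT14) and muscle (MYOD1) were at 0 in all 9 libraries. Other markers below the filter held a few counts. The highest count in a library was 10 for the muscle marker DES, 16 for EPCAM, 11 for PECAM1 and for AFP, and 7 for CD14. The summed level of this second list on that scale was 50.0 to 55.7 CPM with siLRWD1-5 and 37.5 to 39.8 CPM with siLRWD1-6. In the scrambled libraries it was 43.4 to 55.6 CPM, which overlaps with siLRWD1-5 and lies above siLRWD1-6. In such bulk samples fewer cells of a type and less RNA per cell cannot be told apart, and the part of these markers in the results was not tested. Replicate 2 of the scrambled group stood apart from its partners, with a chi-square per gene of 28.4 and 24.2 against them, compared with 2.98 to 5.45 between replicates of either LRWD1 siRNA. Inflammatory genes were highest in replicate 2 of every group, in 28 of 31 listed genes with the scrambled siRNA, 27 with siLRWD1-5 and 25 with siLRWD1-6. The difference between the LRWD1 siRNAs is therefore also given within each series for several of these genes.

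The target itself was the first point at which the siRNAs could be compared. LRWD1 stood at 49.4, 55.0 and 49.6 CPM in the scrambled libraries, at 10.6, 11.4 and 10.4 CPM with siLRWD1-5 and at 6.58, 8.15 and 8.58 CPM with siLRWD1-6. All 6 libraries were far below the scrambled ones, and the siRNA groups did not overlap, with less LRWD1 left after siLRWD1-6. The difference between them was -0.48 on the log2 scale (SE 0.13, edgeR quasi-likelihood test, Benjamini-Hochberg adjusted p = 0.0048, n = 3 per group), and it was -0.69, -0.48 and -0.28 within series 1, 2 and 3. FLI1, whose 3′ part is carried by the fusion transcript, went the other way between the siRNAs. It stood at 47.7, 53.1 and 48.5 CPM with siLRWD1-5, at 76.3, 88.1 and 85.7 CPM with siLRWD1-6 and at 67.2, 77.5 and 69.7 CPM in the scrambled libraries, so that the lowest group was siLRWD1-5 and all 3 groups of libraries were apart except for 1 scrambled library above the lowest siLRWD1-6 library. The log2 difference was 0.74 (SE 0.07, edgeR adjusted p = 1.2e-07). EWSR1 stood at 177 ± 10.9 CPM with siLRWD1-5 and at 187 ± 7.06 CPM with siLRWD1-6 (SD, n = 3), the groups overlapped, and the log2 difference of 0.08 did not pass the test (edgeR adjusted p = 0.24). The counts do not separate FLI1 reads of the fusion from those of an unfused transcript.

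Beyond the target the profiles parted widely, mostly by small steps. Of the 13466 genes, 3794 were higher with siLRWD1-6 (28.2%) and 3664 were lower (27.2%) at an edgeR adjusted p under 0.05, in all 55.4% of the genes tested. Genes that met this threshold are called higher or lower from here on. Of the 7458 genes called, 4566 (61.2%) lay less than 1.5-fold apart, and the median size of a called difference was 0.48 on the log2 scale. At least 2-fold apart were 494 higher genes (3.67%) and 693 lower genes (5.15%), at least 4-fold apart were 50 and 111, and at least 8-fold apart were 4 and 25. The largest differences were thus more often towards higher levels with siLRWD1-5. CPM of the groups did not overlap in 8274 genes (61.4%), and 7405 of the 7458 called genes (99.3%) had the same sign within all 3 series. The called genes were chosen on these same libraries, so this agreement of sign is no independent evidence. The median log2 difference of all genes was -0.01, which the scaling of the libraries sets close to 0.

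**Figure D1:**
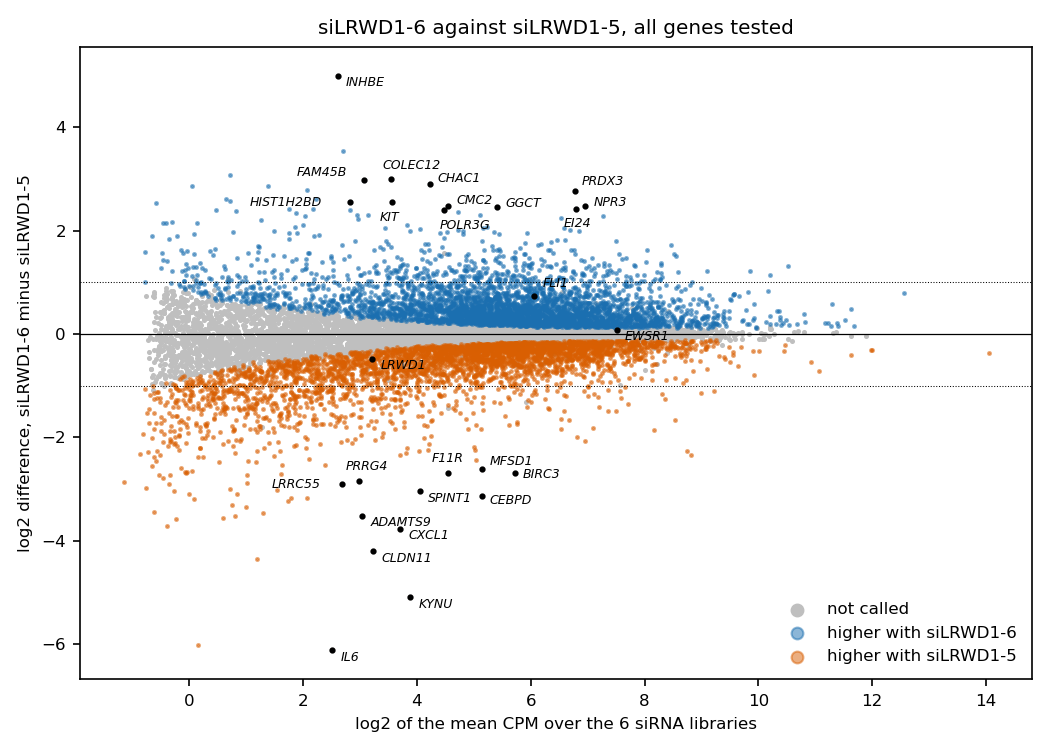
Log2 difference between siLRWD1-6 and siLRWD1-5 (vertical axis) against the log2 of the mean CPM over the 6 siRNA libraries (horizontal axis) for the 13466 genes tested, with called genes in blue and orange, dotted lines at 2-fold and the named genes in black. INHBE lies highest at 5.00 and IL6 lowest at -6.12, while LRWD1 lies at -0.48.

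The genes that differed most towards siLRWD1-6 fell into a larger set that was depleted with siLRWD1-5 and a smaller one that was raised with siLRWD1-6, as read against the scrambled level. To the first set belonged PRDX3, the peroxiredoxin that removes hydrogen peroxide in mitochondria. It stood at 27.3, 26.9 and 30.6 CPM with siLRWD1-5, at 200.2, 193 and 185 CPM with siLRWD1-6 and at 254, 219 and 238 CPM in the scrambled libraries. The siLRWD1-5 libraries were far below the other 6, the siLRWD1-6 libraries were a little below the scrambled ones, and the difference between the siRNAs was 6.84-fold (log2 2.77, SE 0.06, edgeR adjusted p = 1.4e-14). EI24, an endoplasmic reticulum protein with a role in autophagy, was at 35.2, 34.8 and 34.2 CPM with siLRWD1-5, 185, 189.5 and 186 CPM with siLRWD1-6 and 174, 202 and 179.9 CPM in the scrambled libraries. GGCT, which acts in the turnover of glutathione, was at 14.8, 12.3 and 12.3 CPM, 74.6, 69.0 and 73.3 CPM and 83.1, 49.9 and 87.2 CPM in the same order of groups. CMC2, a mitochondrial protein that serves the assembly of cytochrome c oxidase, was at 7.40, 8.70 and 5.14 CPM, 41.4, 40.4 and 38.1 CPM and 43.5, 42.7 and 36.8 CPM. In all 3 genes the siLRWD1-6 mean lay at the scrambled mean, within 0.04 on the log2 scale, and siLRWD1-5 alone was low, with log2 differences between the siRNAs of 2.43, 2.45 and 2.48 (edgeR adjusted p at most 1.8e-10).

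KIT, the receptor tyrosine kinase for stem cell factor, had the same order at lower levels, with 4.30, 2.90 and 3.02 CPM after siLRWD1-5, 21.9, 16.4 and 22.6 CPM after siLRWD1-6 and 18.6, 8.72 and 21.1 CPM in the scrambled libraries, where replicate 2 was the low one. COLEC12, a scavenger receptor of the collectin family, was at 3.10, 1.86 and 2.77 CPM, 24.2, 16.5 and 21.8 CPM and 18.2, 3.75 and 14.9 CPM, again with scrambled replicate 2 far below its partners. POLR3G, a subunit of RNA polymerase III, was at 7.46, 5.50 and 8.24 CPM with siLRWD1-5 against 36.3, 33.7 and 42.2 CPM with siLRWD1-6, on either side of the scrambled libraries at 21.2, 20.2 and 23.2 CPM. The log2 differences between the siRNAs were 2.55, 3.00 and 2.40, and in each of these genes the siRNA groups did not overlap. FAM45B (log2 2.98) and the histone gene HIST1H2BD (log2 2.56) also belonged to the 12 leading genes, but both have near-identical copies in the genome, so that their counts are uncertain.

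The remaining 3 of the 12 leading genes were closest to the scrambled level with siLRWD1-5. INHBE, which encodes a subunit of activin E, stood at 0.316, 0.223 and 0.571 CPM with siLRWD1-5 and at 0.700, 0.571 and 1.71 CPM with the scrambled siRNA, but at 13.8, 11.2 and 10.5 CPM with siLRWD1-6. CHAC1, an enzyme that degrades glutathione, was at 3.80, 3.64 and 5.87 CPM, 6.10, 7.99 and 7.53 CPM and 39.3, 32.1 and 27.4 CPM in the order siLRWD1-5, scrambled, siLRWD1-6. NPR3, the clearance receptor of natriuretic peptides, was at 44.2, 25.2 and 44.1 CPM, 69.2, 48.3 and 82.3 CPM and 217, 179.9 and 238 CPM. For all 3 the siLRWD1-6 libraries were the high ones and did not overlap with any other. The log2 differences between the siRNAs were 5.00 for INHBE (SE 0.26, 3 to 7 counts in each siLRWD1-5 library), 2.91 for CHAC1 (SE 0.18) and 2.48 for NPR3 (SE 0.26, edgeR adjusted p = 0.0012).

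The 12 leading genes that were higher with siLRWD1-5 included IL6, KYNU, CXCL1, CEBPD and BIRC3 of the NF-kB and inflammatory list. IL6, an inflammatory cytokine, stood at 4.18, 23.2 and 6.36 CPM with siLRWD1-5, at 0, 0.367 and 0.0850 CPM with siLRWD1-6, where the libraries held 0, 5 and 1 counts, and at 0.254, 2.28 and 0.466 CPM with the scrambled siRNA. The siRNA groups did not overlap, while scrambled replicates 2 and 3 stood above every siLRWD1-6 library. The fitted log2 difference of -6.12 (SE 1.60, edgeR adjusted p = 0.032) rests on these few counts. The call was lost with limma-voom (adjusted p = 0.065), without siLRWD1-5 replicate 3 (0.052), and without siLRWD1-6 replicate 1 (0.11), 2 (0.088) or 3 (0.10). KYNU, the kynureninase of tryptophan breakdown, was at 26.0, 40.4 and 19.8 CPM with siLRWD1-5, 0.420, 1.32 and 0.765 CPM with siLRWD1-6 and 1.97, 8.89 and 0.931 CPM in the scrambled libraries. CXCL1, a chemokine that attracts neutrophils, was at 18.5, 34.6 and 19.9 CPM, 1.54, 1.61 and 2.21 CPM and 1.65, 7.58 and 2.72 CPM, and CEBPD, a transcription factor of the acute phase response, was at 47.0, 86.9 and 55.5 CPM, 5.32, 8.29 and 8.16 CPM and 6.30, 14.4 and 6.98 CPM. In these 3 genes the siLRWD1-5 libraries were above all others, and the log2 differences between the siRNAs were -5.10, -3.77 and -3.13 (edgeR adjusted p at most 0.0018). Within series 1, 2 and 3 the difference was -3.55, -4.39 and -3.15 for CXCL1 and -3.13, -3.38 and -2.76 for CEBPD. ADAMTS9, a secreted metalloprotease, was at 7.84, 25.2 and 12.5 CPM with siLRWD1-5, 1.12, 1.98 and 0.765 CPM with siLRWD1-6 and 1.14, 11.7 and 1.78 CPM in the scrambled libraries, whose replicate 2 reached into the range of siLRWD1-5 (log2 -3.52, edgeR adjusted p = 0.014). Its call was lost without siLRWD1-6 replicate 1 (adjusted p = 0.066) or replicate 3 (adjusted p = 0.055).

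The next genes of the 12, apart from BIRC3 of the inflammatory list, are of other kinds. CLDN11, a claudin of tight junctions, was at 16.8, 22.2 and 14.4 CPM with siLRWD1-5, 0.630, 1.39 and 0.850 CPM with siLRWD1-6 and 1.72, 1.14 and 0.466 CPM in the scrambled libraries. F11R, the junctional adhesion molecule JAM-A, was at 38.3, 43.5 and 39.3 CPM, 5.81, 5.87 and 7.22 CPM and 5.15, 10.0 and 5.04 CPM. SPINT1, an inhibitor of membrane serine proteases, was at 25.9, 31.3 and 31.6 CPM, 3.01, 3.60 and 4.25 CPM and 3.50, 10.5 and 4.89 CPM. All 3 were raised above every other library in the siLRWD1-5 group, whereas siLRWD1-6 lay close to or below the scrambled level, and the log2 differences were -4.20, -2.69 and -3.04 (edgeR adjusted p at most 3.1e-09). LRRC55, an auxiliary subunit of a potassium channel, and PRRG4, a membrane protein with a Gla domain, followed the same order, with log2 differences of -2.90 and -2.84. BIRC3, a ubiquitin ligase that inhibits cell death, was at 77.1, 123 and 72.8 CPM with siLRWD1-5, 8.40, 20.5 and 13.3 CPM with siLRWD1-6 and 21.6, 47.2 and 25.9 CPM in the scrambled libraries (log2 -2.70). MFSD1, a lysosomal membrane transporter, was the exception among the 12, because its scrambled level of 36.3, 51.8 and 37.2 CPM lay nearer to siLRWD1-5 at 60.4, 60.5 and 60.8 CPM than to siLRWD1-6 at 9.73, 9.91 and 10.0 CPM. Its siLRWD1-6 libraries were the low ones, with a log2 difference of -2.61 (SE 0.08). TIMP2, an inhibitor of matrix metalloproteinases with a much higher level, had the same form, at 777, 696 and 789 CPM, 152, 139 and 157 CPM and 739.9, 620.3 and 688 CPM (log2 -2.34, edgeR adjusted p = 6.1e-14).

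The same reading held over the longer list of genes that were called and at least 2-fold apart. The scrambled mean, on the log2 scale, lay nearer to siLRWD1-6 than to siLRWD1-5 in 922 of these 1187 genes (77.7%), in 415 of the 494 higher genes (84.0%) and in 507 of the 693 lower genes (73.2%). It lay between the siRNA means in 349 of the higher genes and 537 of the lower ones, above both in 133 and 10, and below both in 12 and 146. With the siLRWD1-5 mean set to 0 and the siLRWD1-6 mean to 1, the median place of the scrambled mean was 0.86 for the higher and 0.69 for the lower genes. Without scrambled replicate 2, the library that stood apart, the count was 917, and without replicate 1 or 3 it was 900 or 894. The scrambled libraries had no part in the choice of these genes, and no test was made of their place. The same share over all genes tested is not given here. These counts therefore do not show whether the place is particular to the genes at least 2-fold apart.

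**Figure D2:**
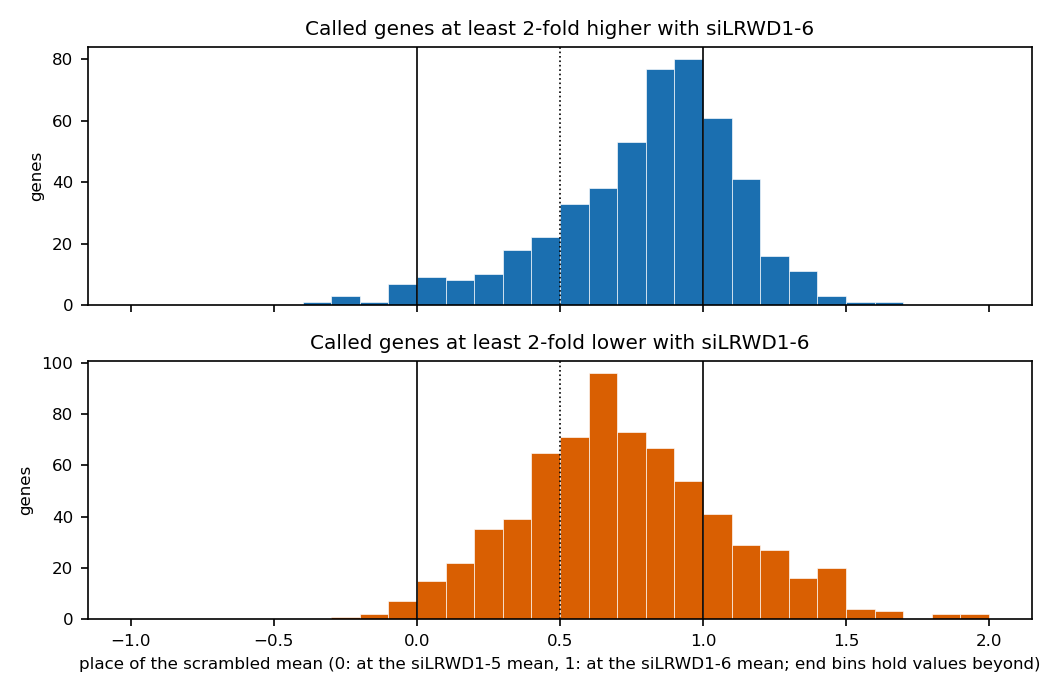
Place of the scrambled mean between the siRNA means on the log2 scale (horizontal axis, 0 at siLRWD1-5 and 1 at siLRWD1-6) for the called genes at least 2-fold higher (494, top) or lower (693, bottom) with siLRWD1-6, as numbers of genes on the vertical axis. Both distributions lie mainly to the right of the dotted middle line, with medians at 0.86 and 0.69.

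Because an siRNA can act on mRNAs through short matches in 3′ UTRs, every 7-base word was compared between genes that hold it in the 3′ UTR and genes that do not. A 3′ UTR of at least 50 bases was found for 11550 of the tested genes (85.8%) in GENCODE release 29, for each gene the longest one in the annotation was read on the transcript strand only, and 15927 words held by at least 100 genes were ranked by the mean log2 difference of the genes that hold them, adjusted for the length and GC content of the 3′ UTR and divided by its error. The ranking is a description and was not tested. The 3 words with the highest rank for higher levels with siLRWD1-6 overlapped each other (the first and second share all but 1 of their bases), and so did the first and second of the words with the highest rank for lower levels. In the order printed they were held by 14.1%, 18.7%, 12.9%, 2.61%, 2.27% and 3.00% of the 3′ UTRs. They are shown 5′ to 3′ because the rest of the sequence comparison turns on them.
Higher with siLRWD1-6, rank 1: ACCTGAA
Higher with siLRWD1-6, rank 2: CCTGAAA
Higher with siLRWD1-6, rank 3: GCCTGAA
Lower with siLRWD1-6, rank 1: ACATCGT
Lower with siLRWD1-6, rank 2: CATCGTC
Lower with siLRWD1-6, rank 3: GGGACCG

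The word ACCTGAA was present in 1629 genes. Their median log2 difference was 0.19, against -0.01 for all genes with a 3′ UTR, and it was 0.20, 0.23 and 0.20 within series 1, 2 and 3. Of these genes 48.2% were called higher, compared with 29.1% of all genes with a 3′ UTR. The median was -0.03 without a copy, 0.18 with 1 copy and 0.26 with 2 or more copies, and it was 0.33 in the 630 genes in which the word was followed by a further A and 0.13 in the 999 in which it was not. Read against the scrambled mean, the genes with ACCTGAA had a median of -0.15 with siLRWD1-5 and of 0.02 with siLRWD1-6, so that the siLRWD1-5 libraries were the ones that departed. For the genes with CCTGAAA (2158 genes) the same medians were -0.13 and 0.02.

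The word ACATCGT was rarer, in 301 genes, and its genes departed more in the other group. Their median log2 difference was -0.16, and 42.9% were called lower, compared with 28.1% of all genes with a 3′ UTR. The median was -0.16 in the 290 genes with 1 copy and 0.0001 in the 11 genes with 2 or more. More copies thus went with no larger difference, over few genes. With a further A after the word the median was -0.22 (54 genes), and without it -0.14 (247 genes). Against the scrambled mean the 301 genes had a median of 0.01 with siLRWD1-5 and of -0.10 with siLRWD1-6. The other leading words of this direction did not share that, since genes with CATCGTC had medians of 0.08 with siLRWD1-5 and -0.06 with siLRWD1-6, and genes with GGGACCG had medians of 0.11 and -0.03. The rank of this word was less firm than that of ACCTGAA and CCTGAAA, which took ranks 1 and 2 in either order under each alternative tried. ACATCGT was first under 3 of the settings, and fell to rank 15 when the adjustment for length and GC content was left out. CATCGTC fell to rank 36 without that adjustment and to rank 17 with the shortest 3′ UTR of each gene, and GGGACCG fell to rank 18 among genes of at least 5 CPM.

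**Figure D3:**
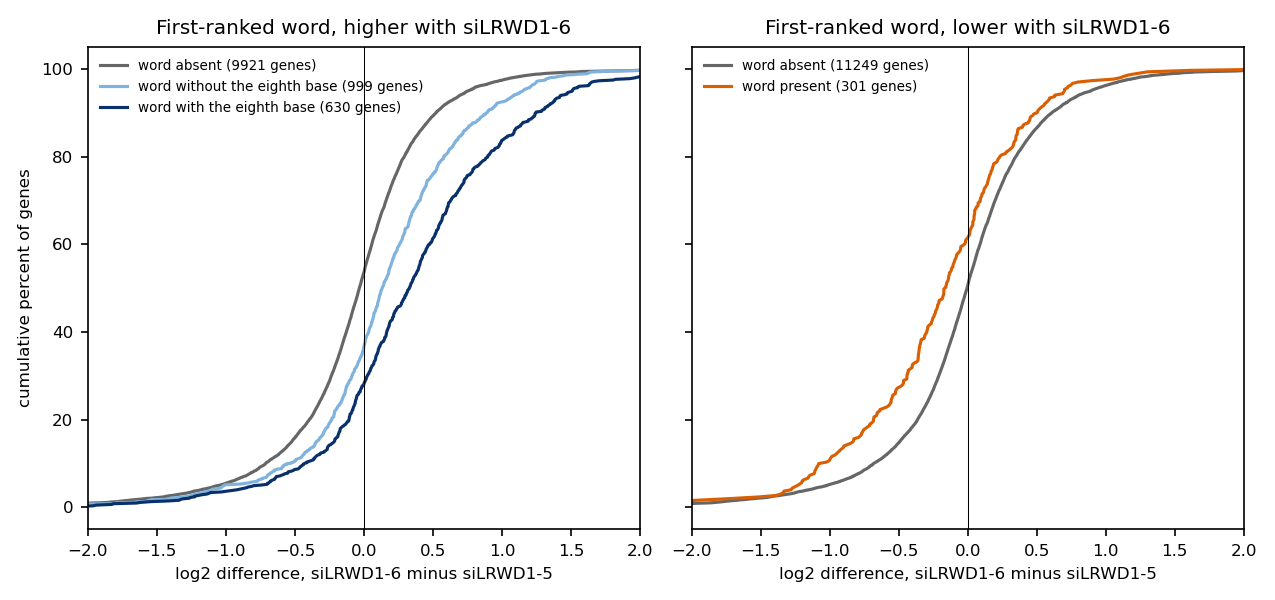
Cumulative percent of genes (vertical axis) against the log2 difference between siLRWD1-6 and siLRWD1-5 (horizontal axis) for genes with and without the first-ranked word of each direction in the 3′ UTR. On the left the curves shift to the right from genes without the word to the 999 genes with it and to the 630 genes in which a further A follows as the eighth base, and on the right the 301 genes with the word lie to the left of the others.

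Of the 432 genes with a 3′ UTR that were called and at least 2-fold higher with siLRWD1-6, 254 (58.8%) held ACCTGAA or CCTGAAA, compared with 25.1% of all genes with a 3′ UTR. Of the 611 genes at least 2-fold lower, 46 (7.53%) held ACATCGT or CATCGTC, compared with 4.22% of all. Since the words were ranked on the same values, these shares describe the sets and are no independent evidence. The leading genes differed in the same manner. Of the 12 genes highest with siLRWD1-6, 11 were matched to a 3′ UTR and 8 of them held ACCTGAA or CCTGAAA, namely PRDX3, HIST1H2BD, KIT, CMC2, NPR3, GGCT, EI24 and POLR3G. One match is shown for each of 6 of these genes and for FLI1, with 14 bases before and 1 base after in lower case, and the capitals mark the words, joined where both overlap.
CMC2: gactctgggttgatACCTGAAAg
POLR3G: aatggatttctataACCTGAAAg
KIT: gagggtcctttagtACCTGAAAa
EI24: tacaacaacactaaACCTGAAc
PRDX3: ttctgatcaacggtCCTGAAAt
GGCT: ggggtgtatgagggCCTGAAAt
FLI1: cttttgcttcctctACCTGAAc

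The joined match in CMC2 began at base 57 of its 3′ UTR, that in POLR3G at base 379, and that in KIT at base 1182. Further matches began at base 337 in KIT and at base 562 in PRDX3. In FLI1 the match shown began at base 187 of the 3′ UTR, a second one (CCTGAAA) began at base 676, and both lie in the part of the gene that the fusion transcript carries. Of the 3 leading genes nearer to the scrambled level with siLRWD1-5, INHBE and CHAC1 held no match in the 3′ UTR read here, while NPR3 held CCTGAAA at bases 2777 and 3068. COLEC12 held none. Of the 12 genes lowest with siLRWD1-6, 4 also held ACCTGAA or CCTGAAA (KYNU, CLDN11, LRRC55 and PRRG4), so the words were not held by genes of a single direction. ACATCGT or CATCGTC was found in 3 of these 12 and in none of the 11 matched genes of the other direction. The 3 include MFSD1, the gene of that group whose siLRWD1-6 libraries were the ones that departed from the scrambled level, and the matches are shown for that reason. In BIRC3 only 12 bases of the 3′ UTR precede the match.
MFSD1: agaatgggcttaacACATCGTt
BIRC3: agaagaaccaaaACATCGTCt
SPINT1: tgagcaggttttccCATCGTCt

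The words were also looked for in the target. The LRWD1 transcript read here has 2215 bases, with the coding sequence from base 153 and the 3′ UTR from base 2097. ACCTGAA occurred at bases 478 and 559 and ACATCGT at bases 1678 and 2068, all in the coding sequence. They are shown because an siRNA against LRWD1 must match this transcript.
LRWD1 base 478: gacggtcaatgacaACCTGAAa
LRWD1 base 559: ctctcaggtggagaACCTGAAt
LRWD1 base 1678: atttgtgaatgaggACATCGTg
LRWD1 base 2068: cctgacggactccaACATCGTa

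CCTGAAA also occurred, at base 479, where it overlaps ACCTGAA at base 478. Thus 3 of the 6 leading words occurred in the LRWD1 transcript, of which ACCTGAA and CCTGAAA share 1 site, compared with 11.5% of all ranked words. Several leading words overlap each other, so they do not count as separate cases, and the difference between these shares was not tested. The guide sequences of the siRNAs were not used here, so whether any of these matches is a site of either siRNA was not tested.

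Gene groups were then compared by their counts and medians, beside the 28.2% higher and 27.2% lower among all genes and their median of -0.01. The list with the highest median was made up of effectors of ATF4, the transcription factor that is translated more when amino acids are short or unfolded proteins accumulate. Of 22 tested, 18 were higher with siLRWD1-6 and 0 were lower, with a median log2 difference of 1.18. ATF4 itself stood at 179, 177 and 162 CPM with siLRWD1-5, 481, 456 and 418 CPM with siLRWD1-6 and 248, 219 and 243 CPM in the scrambled libraries. DDIT3, a transcription factor of the same response also called CHOP, was at 25.9, 26.9 and 26.2 CPM, 77.9, 75.7 and 83.0 CPM and 41.6, 56.3 and 40.0 CPM. In both genes the groups were in the order siLRWD1-5, scrambled, siLRWD1-6 with no overlap, and the log2 differences between the siRNAs were 1.38 and 1.58 (edgeR adjusted p = 1.2e-11 and 8.4e-12). DDIT4, which restrains the growth kinase complex mTORC1, was at 7.59, 9.37 and 9.05 CPM with siLRWD1-5 against 46.3, 46.5 and 40.5 CPM with siLRWD1-6, and SESN2, which senses leucine upstream of mTORC1, was at 16.8, 14.6 and 18.6 CPM and 67.7, 60.5 and 66.9 CPM. VEGFA, the angiogenic growth factor, was 3.53-fold higher with siLRWD1-6, at 43.0 ± 2.26 and 151 ± 14.3 CPM (SD, n = 3). The median of the list against the scrambled mean was -0.13 with siLRWD1-5 and 0.92 with siLRWD1-6, so the siLRWD1-6 libraries departed from the scrambled level. The 15 members without ACCTGAA or CCTGAAA in the 3′ UTR had a median of 1.38 and the 7 members with either word one of 0.98.

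Lists of amino acid supply and use had positive medians too. Of 21 enzymes of amino acid and one-carbon synthesis, 14 were higher with siLRWD1-6 and 2 were lower (median 0.58). Examples are PCK2, the mitochondrial phosphoenolpyruvate carboxykinase, at 8.86, 7.51 and 8.97 CPM with siLRWD1-5 against 30.8, 27.8 and 26.1 CPM with siLRWD1-6, and ASNS, the asparagine synthetase, at 73.4, 65.8 and 59.2 CPM and 152, 149 and 127 CPM. PSAT1 of serine synthesis (log2 1.28) and MTHFD2 of the mitochondrial folate pathway (log2 1.13) were also among the higher genes. The 2 lower ones were GLUL (log2 -0.30) and ALDH1L2 (log2 -0.73). The call of ALDH1L2 was lost without siLRWD1-5 replicate 1 (adjusted p = 0.070), siLRWD1-5 replicate 3 (0.056) or siLRWD1-6 replicate 2 (0.058), which leaves 1 lower gene. Of 15 amino acid transporters, 11 were higher and 2 were lower (median 0.67), among them SLC38A1, a glutamine carrier, at 146, 140.4 and 144 CPM and 376, 378 and 379.9 CPM, and SLC7A11, the cystine carrier, at 174, 148 and 154 CPM and 360.3, 351 and 336 CPM. SLC36A1, a lysosomal amino acid carrier, was lower (log2 -1.22). Of 20 cytosolic tRNA synthetases, which charge tRNAs with amino acids, 16 were higher and 0 were lower (median 0.46). YARS, the tyrosine enzyme, differed most, at 159, 181 and 155 CPM with siLRWD1-5, 552, 538 and 548 CPM with siLRWD1-6 and 396, 392 and 407 CPM in the scrambled libraries, so that it departed in both groups, downwards with siLRWD1-5 and upwards with siLRWD1-6. GARS, the glycine enzyme, was at 304, 312 and 295 CPM and 628, 618 and 588 CPM (log2 1.01).

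The endoplasmic reticulum unfolded protein response was mixed by comparison, with 15 of 32 genes higher with siLRWD1-6, 8 lower and a median of 0.13. HERPUD1, a component of protein degradation at the endoplasmic reticulum, was at 83.5, 93.6 and 92.3 CPM with siLRWD1-5 against 215, 225 and 231 CPM with siLRWD1-6 (log2 1.32), and XBP1, a transcription factor of this response, was at 126, 128 and 131 CPM and 207, 214 and 209.7 CPM (log2 0.71). Both groups lay above the scrambled mean by the list's median, 0.24 with siLRWD1-5 and 0.32 with siLRWD1-6.

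The list with the lowest median held inflammatory genes under NF-kB, which were higher with siLRWD1-5. Of 31 tested, 24 were lower with siLRWD1-6 and 0 were higher, and the median log2 difference was -1.32. CSF2, the cytokine GM-CSF, stood at 4.11, 9.82 and 4.73 CPM with siLRWD1-5, 0.420, 0.954 and 0.680 CPM with siLRWD1-6 and 0.254, 1.96 and 0.233 CPM in the scrambled libraries. The adhesion molecule ICAM1 was at 233, 289 and 289 CPM, 93.1, 126 and 124 CPM and 77.1, 124 and 77.6 CPM, and the chemokine CXCL2 was at 6.52, 13.0 and 7.42 CPM, 1.12, 2.20 and 1.27 CPM and 0.827, 1.79 and 0.698 CPM. In each of these genes the lowest siLRWD1-5 library was above the highest of the other 6. Replicate 2 was the highest library of its group in most members, and within series 1, 2 and 3 the differences were -3.18, -3.31 and -2.73 for CSF2, -1.32, -1.19 and -1.22 for ICAM1 and -1.54, -1.32 and -1.16 for IL1B. IL1B, the cytokine interleukin-1 beta, was at 64.4, 121 and 73.6 CPM with siLRWD1-5 against 22.1, 48.4 and 32.8 CPM with siLRWD1-6, without overlap between the siRNA groups, and did not pass the test (log2 -1.32, edgeR adjusted p = 0.054). It passed with DESeq2 (adjusted p = 0.0059). The call of LIF, a cytokine of the IL6 family at 33.7, 81.1 and 44.3 CPM with siLRWD1-5 against 9.31, 15.0 and 10.4 CPM with siLRWD1-6, was lost without siLRWD1-6 replicate 1 (adjusted p = 0.069) or replicate 3 (0.067). The summed level of the list was 3560, 5286 and 4034 CPM in the siLRWD1-5 libraries, 1570, 2515 and 1846 CPM in the siLRWD1-6 libraries and 1294, 2677 and 1349 CPM in the scrambled ones, so that the siLRWD1-5 libraries were the ones that departed. Against the scrambled mean the list's median was 1.57 with siLRWD1-5 and 0.19 with siLRWD1-6. Of the 25 members with a 3′ UTR that held neither ACCTGAA nor CCTGAAA, the leading words for higher levels with siLRWD1-6, 20 were lower with siLRWD1-6. Among all genes with a 3′ UTR that held neither word, 2703 of 8648 were lower. ACATCGT or CATCGTC, the leading words for lower levels, occurred in 3 of the 29 members with a 3′ UTR (10.3%), compared with 4.2% of all. The part of any of these words in the list was not tested.

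Interferon-response genes followed with smaller differences, 19 of 34 lower with siLRWD1-6, 1 higher and a median of -0.46. PARP9, which acts with the ubiquitin ligase DTX3L in this response, was at 23.7, 24.0 and 25.1 CPM with siLRWD1-5, 9.73, 9.76 and 9.18 CPM with siLRWD1-6 and 13.2, 12.6 and 12.6 CPM in the scrambled libraries (log2 -1.34). OAS3, which makes the activator of RNase L, was at 75.7, 83.5 and 86.0 CPM, 38.9, 41.4 and 45.4 CPM and 52.8, 48.8 and 63.3 CPM (log2 -0.96). In both the groups did not overlap, with the scrambled libraries between the siRNAs. The 1 higher gene was STAT2, a transcription factor that mediates the response itself, at 36.6, 42.6 and 40.7 CPM with siLRWD1-5 against 70.4, 70.9 and 67.4 CPM with siLRWD1-6 (log2 0.80).

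Genes known to be activated and genes known to be repressed by EWS-FLI1 had medians of opposite sign. Of 39 genes that the fusion activates, 21 were higher with siLRWD1-6 and 7 were lower (median 0.23). Of 36 mesenchymal genes that it represses, 9 were higher and 16 were lower (median -0.29). NR0B1, an orphan nuclear receptor and a direct target of the fusion, was at 20.8, 25.6 and 28.4 CPM with siLRWD1-5, 52.1, 45.9 and 51.7 CPM with siLRWD1-6 and 38.9, 53.4 and 40.7 CPM in the scrambled libraries. CAV1, the caveolar coat protein, was 2.35-fold higher with siLRWD1-6 (log2 1.23, SE 0.06). On the repressed side, TPM2, a tropomyosin, was at 45.2, 54.1 and 52.8 CPM with siLRWD1-5, 19.9, 18.6 and 21.5 CPM with siLRWD1-6 and 25.2, 34.5 and 23.5 CPM in the scrambled libraries, and RUNX2, a transcription factor of bone formation, was at 15.5, 19.0 and 13.2 CPM, 7.56, 7.19 and 8.41 CPM and 5.72, 6.44 and 5.28 CPM. IGFBP3, a secreted binder of insulin-like growth factors, was at 3.29, 5.65 and 2.20 CPM, 0.910, 1.47 and 0.680 CPM and 1.53, 3.67 and 1.47 CPM (log2 -1.84). In NR0B1, TPM2 and RUNX2 the siLRWD1-5 libraries stood apart from the other 6. Against the scrambled mean the activated list had a median of -0.40 with siLRWD1-5 and -0.12 with siLRWD1-6, and the repressed list had medians of 0.44 and -0.05. FLI1 lay below the scrambled mean with siLRWD1-5, as did the activated list's median, and above it with siLRWD1-6, where that median lay below. The part of FLI1 in these medians was not tested. Not every repressed gene followed, since the collagen gene COL1A1 was higher with siLRWD1-6 (log2 1.32). With all 9 libraries in the fit, 4 activated genes were lower instead of 7.

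Of the 9 genes of the FLI1, EWSR1 and ETS list, 5 were higher with siLRWD1-6 and 0 were lower (median 0.25). ETV5, an ETS factor, was at 31.6, 33.2 and 35.9 CPM with siLRWD1-5, 115, 114 and 107 CPM with siLRWD1-6 and 93.7, 102 and 101 CPM in the scrambled libraries, and its relative ETV1 was at 28.4, 25.1 and 28.1 CPM, 57.7, 54.0 and 56.9 CPM and 62.4, 51.0 and 72.8 CPM. In both genes siLRWD1-5 alone was low. Of 30 MAP kinase response genes 14 were higher with siLRWD1-6 and 5 were lower (median 0.19), with the early response gene FOS at 1.71, 1.86 and 2.37 CPM and 9.24, 8.07 and 4.33 CPM, and SPRED2, an inhibitor of the pathway, at 61.2, 68.4 and 63.4 CPM and 135, 139 and 127 CPM. These counts were among the less stable ones, with 9 higher and 2 lower when all 9 libraries entered the fit, 9 lower without siLRWD1-5 replicate 1, and 2 lower without siLRWD1-5 replicate 3 or without siLRWD1-6 replicate 1 or 3.

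**Figure D4:**
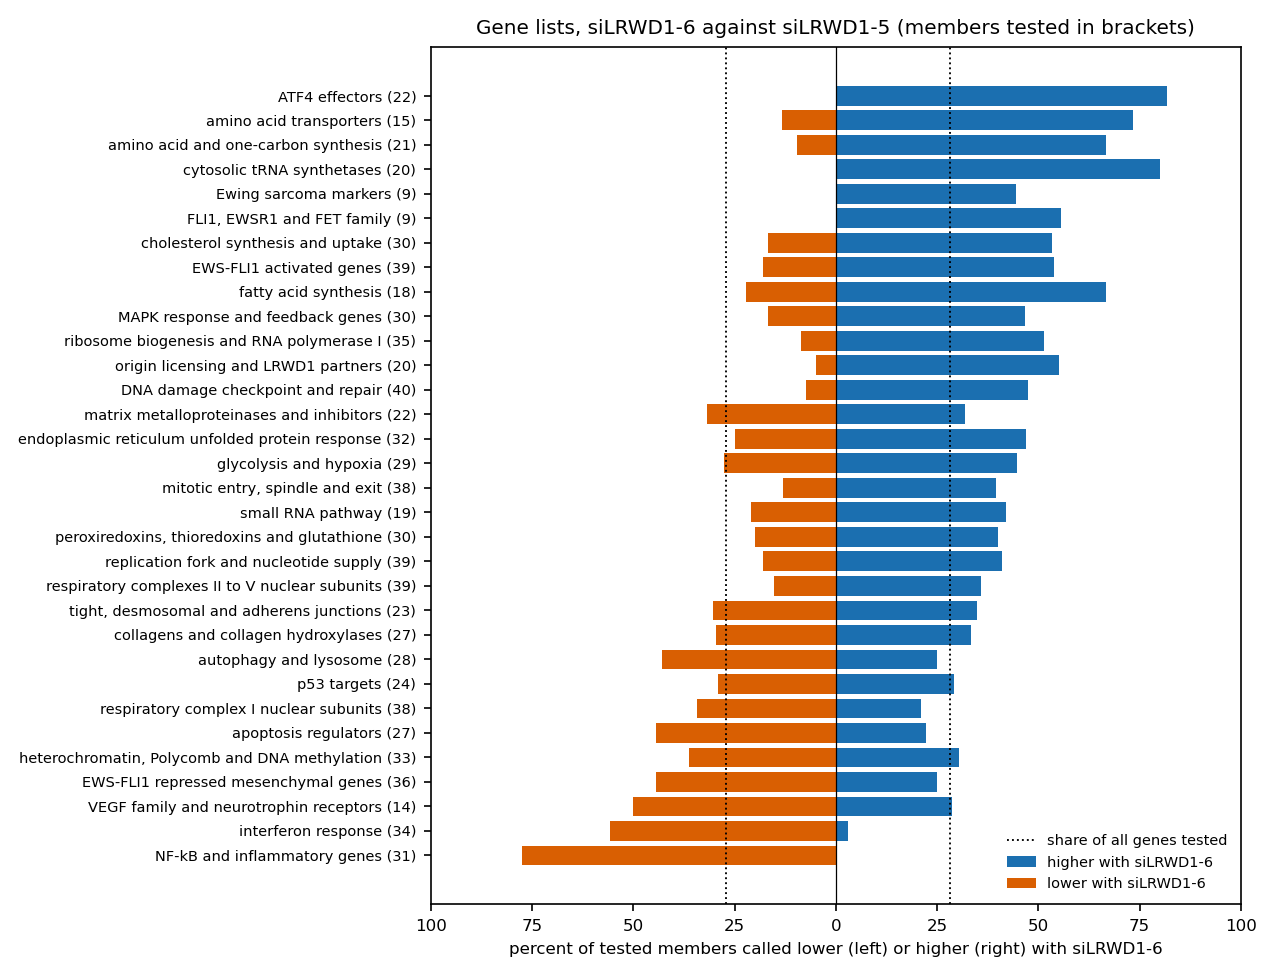
Percent of the tested members of each gene list that were called higher (blue, right) or lower (orange, left) with siLRWD1-6, with the number tested in brackets and dotted lines at the shares of all genes (28.2% and 27.2%), in the order of the median log2 difference. ATF4 effectors (18 of 22 higher) lie at the top and NF-kB and inflammatory genes (24 of 31 lower) at the bottom.

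Replication genes, the group in which LRWD1 itself acts, differed modestly. Of 20 genes of origin licensing and partners of LRWD1, 11 were higher with siLRWD1-6, the only lower gene was LRWD1, and the median was 0.17. CDC6, which loads the helicase at origins, was at 48.3, 41.0 and 43.3 CPM with siLRWD1-5, 81.4, 77.5 and 88.1 CPM with siLRWD1-6 and 99.0, 63.8 and 100.2 CPM in the scrambled libraries. ORC2, a subunit of the origin recognition complex, was at 33.8, 35.9 and 36.6 CPM, 54.0, 53.8 and 54.7 CPM and 53.8, 50.9 and 50.0 CPM, and ORC5 was lower with siLRWD1-5 as well (log2 difference 0.56). In CDC6 and ORC2 the siLRWD1-5 libraries were below all others. With all 9 libraries in the fit 5 genes of the list were higher instead of 11, and without siLRWD1-5 replicate 2 a second gene was lower. The 39 genes of the replication fork and nucleotide supply had 16 higher, 7 lower and a median of 0.05, and went both ways, with DTYMK of thymidine nucleotide synthesis at 23.8, 22.5 and 25.3 CPM with siLRWD1-5 against 68.5, 68.9 and 65.8 CPM with siLRWD1-6, and the ribonucleotide reductase subunit RRM2 at 330.1, 283 and 298 CPM and 207, 217 and 210.2 CPM. With all 9 libraries the counts were 8 and 2, and 4 were lower without siLRWD1-5 replicate 3 or without siLRWD1-6 replicate 1 or 2.

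Of 38 mitotic genes, 15 were higher with siLRWD1-6 and 5 were lower (median 0.11). CDC20, which directs the anaphase-promoting complex to its substrates, was at 38.9, 34.8 and 38.4 CPM with siLRWD1-5, 153, 149 and 161 CPM with siLRWD1-6 and 181, 109.6 and 171 CPM in the scrambled libraries, and MAD2L1, the checkpoint protein that restrains it, was at 20.9, 16.3 and 18.9 CPM, 48.7, 47.2 and 42.9 CPM and 56.3, 36.0 and 58.0 CPM. In both genes siLRWD1-5 was below all other libraries, and siLRWD1-6 lay within the scrambled range. With all 9 libraries 6 mitotic genes were higher and 0 lower, and the number of lower genes ran from 2 to 9 when single libraries were left out (2 without siLRWD1-5 replicate 1 or siLRWD1-6 replicate 3, 3 without siLRWD1-6 replicate 2, 9 without siLRWD1-5 replicate 2). Of 40 genes of the DNA damage checkpoint and repair, 19 were higher with siLRWD1-6 and 3 were lower (median 0.16). TOPBP1, an activator of the checkpoint kinase ATR, was at 49.3, 47.6 and 46.3 CPM with siLRWD1-5, 116, 120.3 and 115 CPM with siLRWD1-6 and 115, 84.6 and 126 CPM in the scrambled libraries, and XRCC6, the Ku70 subunit of end joining, was at 194, 218 and 195 CPM, 428, 443 and 428 CPM and 427, 441 and 430.5 CPM. In both genes siLRWD1-5 was low and siLRWD1-6 overlapped with the scrambled libraries. The 3 lower genes became 1 without siLRWD1-5 replicate 3 or siLRWD1-6 replicate 2, and 0 with all 9 libraries. Among all genes with a 3′ UTR, those that held ACCTGAA or CCTGAAA had a median of 0.15 and those that did not one of -0.05. In the DNA damage list these medians were 0.48 (13 genes) and 0.10 (26 genes), and in the mitotic list they were 0.55 (7 genes) and 0.06 (31 genes). Other lists went the opposite way, though with few genes that held either word. The medians were -0.84 (4 genes) and -0.07 (16 genes) for junction genes. For metalloproteinases and inhibitors they were -0.78 (5 genes) and 0.15 (17 genes), and for apoptosis regulators -0.31 (7 genes) and -0.09 (19 genes).

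In lipid synthesis, 16 of 30 cholesterol genes were higher with siLRWD1-6 and 5 were lower (median 0.23). MSMO1, a sterol demethylase, was at 34.0, 34.1 and 28.3 CPM with siLRWD1-5, 156, 157 and 148 CPM with siLRWD1-6 and 145, 86.8 and 117 CPM in the scrambled libraries, and so was low with siLRWD1-5. HMGCS1, which makes HMG-CoA, was high with siLRWD1-6 instead, at 206, 177 and 169 CPM, 358, 358 and 369 CPM and 224, 122 and 192 CPM. SC5DL, a desaturase late in the pathway, was lower (log2 -1.09). Of 18 genes of fatty acid synthesis 12 were higher and 4 were lower (median 0.22), led by the elongase ELOVL6 at 24.6, 21.2 and 18.8 CPM and 72.2, 64.3 and 62.2 CPM. With all 9 libraries in the fit, 6 fatty acid genes were higher and 3 cholesterol genes were lower.

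Mitochondrial and redox lists were divided. Of 30 peroxiredoxins, thioredoxins and glutathione genes, 12 were higher with siLRWD1-6 and 6 were lower (median 0.06). PRDX3 and GGCT were the largest, and HMOX1, the haem oxygenase, was at 8.79, 10.4 and 10.3 CPM with siLRWD1-5, 25.1, 23.8 and 29.9 CPM with siLRWD1-6 and 21.2, 55.6 and 19.5 CPM in the scrambled libraries, where replicate 2 was high. The 7 members that held ACCTGAA or CCTGAAA had a median of 0.72, and the 22 that did not one of -0.04. Nuclear subunits of respiratory complex I had 8 higher and 13 lower of 38 (median -0.08), and those of complexes II to V had 14 higher and 6 lower of 39 (median 0.04). Single subunits stood out from these medians, such as NDUFB10 of complex I at 31.0, 33.8 and 31.5 CPM with siLRWD1-5 against 66.2, 72.1 and 75.3 CPM with siLRWD1-6, and COX4I1 of complex IV at 113, 128 and 113 CPM and 248, 244 and 253 CPM. The complex I counts were 5 and 6 with all 9 libraries, the higher count was 5 with DESeq2 or without siLRWD1-5 replicate 3, and the lower count was 8 without siLRWD1-5 replicate 1 or siLRWD1-6 replicate 1 and 7 without siLRWD1-6 replicate 3. For complexes II to V the lower count was 3 with all 9 libraries, without siLRWD1-5 replicate 2 or without siLRWD1-6 replicate 2, and 2 without siLRWD1-6 replicate 1.

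Genes of the cell surface and matrix held large differences in both directions without a common sign. Of 23 junction genes 8 were higher with siLRWD1-6 and 7 were lower (median 0.02). DSP, the desmosomal plaque protein, was at 30.1 ± 1.36 CPM with siLRWD1-5, 6.34 ± 0.699 CPM with siLRWD1-6 and 5.66 ± 1.13 CPM with the scrambled siRNA (SD, n = 3), and the gap junction protein GJA1 was at 71.2, 79.7 and 72.8 CPM, 183, 191 and 183 CPM and 180.3, 186 and 184 CPM. In both genes siLRWD1-5 alone departed, upwards for DSP and downwards for GJA1. The 22 metalloproteinases and inhibitors had 7 in each direction (median 0.14), and the 27 collagens and collagen hydroxylases 9 higher and 8 lower (median -0.05), among them P4HA2, a prolyl hydroxylase, at 162, 175 and 164 CPM with siLRWD1-5 against 78.8, 69.7 and 86.2 CPM with siLRWD1-6. COL3A1, a fibrillar collagen, was lower (log2 -0.71), a call that was lost with all 9 libraries in the fit (adjusted p = 0.077).

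Of 14 genes of the VEGF family and neurotrophin receptors, 4 were higher and 7 lower (median -0.30), and the ligands went opposite ways. VEGFA was higher with siLRWD1-6 as given above, while PGF, the placental growth factor, was at 195, 234 and 207 CPM with siLRWD1-5, 58.1, 59.2 and 63.8 CPM with siLRWD1-6 and 139, 295 and 124 CPM in the scrambled libraries. VEGFC, a ligand of lymphatic vessels, was at 5.76, 6.77 and 5.06 CPM and 1.40, 1.25 and 1.27 CPM (log2 -2.16). NGFR, the low-affinity neurotrophin receptor, was at 2.28, 2.16 and 3.43 CPM, 13.9, 10.4 and 14.4 CPM and, in the scrambled libraries, 12.4, 17.0 and 16.1 CPM (log2 2.31), and so was low with siLRWD1-5.

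Ribosome biogenesis and RNA polymerase I had 18 higher and 3 lower of 35 (median 0.17), and the 3 lower became 5 without siLRWD1-5 replicate 3 or siLRWD1-6 replicate 2. Targets of p53 had 7 in each direction of 24 (median -0.06, with 4 lower without siLRWD1-6 replicate 2), and among them MDM2, the ligase that degrades p53, was at 63.5, 63.6 and 65.1 CPM with siLRWD1-5 against 153, 162 and 133 CPM with siLRWD1-6. Apoptosis regulators had 6 higher and 12 lower of 27 (median -0.09), and autophagy and lysosome genes 7 and 12 of 28 (median -0.06). Genes of the small RNA pathway, through which an siRNA acts, had 8 higher and 4 lower of 19 (median 0.09). DICER1, the nuclease that makes small RNAs, was at 146, 139 and 153 CPM and 240.4, 219 and 242 CPM, while EIF2C2, the slicing Argonaute AGO2, was at 96.6 ± 8.18 and 90.8 ± 2.78 CPM (SD, n = 3) and was not called (edgeR adjusted p = 0.26). The 8 higher genes of this list became 5 with all 9 libraries, with DESeq2, and without siLRWD1-5 replicate 2 or 3 or siLRWD1-6 replicate 1. Heterochromatin, Polycomb and DNA methylation genes, which include partners of LRWD1 on chromatin, had 10 higher and 12 lower of 33 (median -0.12), with DNMT3A, a DNA methyltransferase, at 115, 124 and 109 CPM with siLRWD1-5 against 71.9, 73.0 and 67.8 CPM with siLRWD1-6. The counts were 5 and 5 with all 9 libraries, and the lower count was 6 without siLRWD1-5 replicate 3 or siLRWD1-6 replicate 2 and 7 without siLRWD1-6 replicate 1. Glycolysis and hypoxia genes had 13 higher and 8 lower of 29 (median 0.11), with 8 and 4 when all 9 libraries entered the fit and 4 or 5 lower without siLRWD1-5 replicate 1 or 3 or without any siLRWD1-6 replicate.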

How the data were processed

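RNA-seq was made from 9 cultures of A673 cells, 3 for each siRNA, with the TruSeq RNA version 2 kit, which does not mark strand. Per the submitters' processing notes the authors used bcl2fastq 1.8.4, TopHat2 2.0.10, HTSeq 0.5.4p3 and hg19; the role of each is not stated, and the annotation and counting mode were not given in the sources used here. The deposited values are whole-number counts for 23368 gene symbols, with no unused sample column. The 6 siRNA libraries were fitted in edgeR 4.0.16 (R 4.3.3) by a robust quasi-likelihood model with group as the only term, TMM scaling and the filterByExpr filter, with Benjamini-Hochberg adjustment over 13466 genes and a threshold of 0.05. The SE is the log2 difference divided by the root of F. Total counts were 11971179 to 15674452 in the 9 libraries. Scrambled libraries were put on the same CPM scale by TMM against the same reference library.

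Named were LRWD1, FLI1 and EWSR1, the 12 genes per direction with the largest difference among called genes of at least 5 CPM without overlap, leaving out uncharacterised, antisense and small RNA symbols, and up to 5 members per direction of each of 33 lists of 10 to 40 symbols, with other members by their values. The members of the comparison and the lists were chosen with earlier results of these data known. 3′ UTRs and the LRWD1 transcript came from GENCODE release 29 (GRCh38), matched by symbol. Alternatives were RLE scaling, other filters, DESeq2 1.42.0, limma-voom 3.58.1, a replicate block, all 9 libraries in the fit, and each library left out. On simulated counts with 200 changed genes among 13466 in this comparison, 59.7%, 98.5% and 100% were recovered at log2 changes of 0.5, 1 and 2, and 8% of the calls were unchanged genes. The simulation changed a far smaller share of genes than the 55.4% called in the data. It also held no effect shared by libraries of the same number, so these rates need not hold for the data. The values of 1 listed gene are not reported here.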

Additional observations from a re-analysis of the deposited data

How the results depend on the processing

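The numbers of genes higher and lower with siLRWD1-6, all and at least 2-fold apart, stayed within 1.5-fold of 3794, 3664, 494 and 693 under all alternatives. They ranged from 3063 and 2856 with all 9 libraries in the fit to 4122 and 4073 with the replicate number as a block, and were 3387 and 3135 with DESeq2, 3774 and 3636 with limma-voom, and 3414 to 3691 and 3176 to 3563 with 1 library left out. Of the 7458 calls, 78.9% were kept with all 9 libraries and 86.2% to 91.7% with 1 library left out. The replicate numbers were not used as pairs in the main fit, because the labels do not say that a number is shared between groups. Deviations from the group means correlated by 0.16, 0.23 and 0.09 between same-numbered libraries of the siRNAs. Between libraries of different number the correlations ran from -0.21 to 0.07, so each library correlated best with its own number. Whether the numbers mark shared experiments was not tested. The number of genes whose scrambled mean lay nearer to siLRWD1-6 was 267 of 347 (76.9%) at a fold minimum of 3, where fewer genes qualify. No gene named in the text reversed its direction under any alternative. Counts of listed genes that moved by over 1.5-fold are given with each list; besides these, with the block 9 MAP kinase genes, 2 licensing genes and 5 ribosome biogenesis genes were lower, with DESeq2 3 mitotic genes, and with no count filter 3 MAP kinase and 4 glycolysis genes. IL1B passed with the block (log2 -1.34, SE 0.06, edgeR adjusted p = 4.4e-29), at nearly the same size of difference as without it. With 6 libraries and a block in the fit, a p this small is no measure of how firm the difference is. The cause of the change was not tested. The depth of these libraries does not resolve genes of a few counts, such as IL6 with siLRWD1-6.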
